A study of Mus musculus with 10 samples.

Results

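Lin7a, Hsd17b2, Cep295nl and 5830403F22Rik are 4 genes whose signal was higher in metanephric mesenchyme of Wnt9b mutant mouse embryos than in that of wild-type embryos. They were picked from 18193 genes for a higher mutant signal with a small p on the same 10 arrays described here, so their difference between the genotypes is given as a description, and no test is read from it. Every probe set annotated to exactly 1 of these symbols was taken, which gave 6 probe sets, 3 for Lin7a and 1 for each of the others. For Lin7a only the brightest of the 3 separated the groups, and 1 of the others had a lower mean in the mutant. The samples were 5 pools of Wnt9b-/- mesenchyme and 5 pools of mesenchyme labelled Wnt9b+/+, all from E11.5 kidneys. The series' design text instead describes the controls as Wnt9b+/- and gives Wnt9b+/- intercrosses as the source of all embryos. The genotype label of each sample was followed, and the controls are called wild type. In both genotypes a trypsin and pancreatin digestion preceded removal of the ureteric bud. Each pool held 25 to 30 mesenchymes and was hybridised to an Affymetrix mouse genome array of its own.

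Wnt9b is a secreted ligand made by the ureteric bud, the epithelial tube that grows into the metanephric mesenchyme. It reaches the neighbouring mesenchyme, where it acts through beta-catenin and Tcf/Lef factors on nephron progenitors and on the first steps of tubule formation. The known roles of the 4 genes differ. Lin7a encodes a small PDZ-domain scaffold that joins CASK and APBA proteins at synapses and at the basolateral side of epithelia. Hsd17b2 encodes an enzyme that oxidises estradiol to estrone and testosterone to androstenedione. Cep295nl is named for its likeness to Cep295, a centriole assembly protein, and 5830403F22Rik is annotated as a long non-coding RNA.

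Values are probe-set intensities, called signal, which the authors had scaled to a common level, and log2 signal means log2(signal + 1). Array medians of all probe sets lay between 62.5 and 78.04 signal units. Wnt9b itself had signals of 78.6, 106, 100.3, 64.2 and 41.8 on the mutant arrays, against 81.7, 99.7, 89.1, 92.1 and 78.2 on the wild-type arrays (limma log2 difference -0.24, SE 0.24, adjusted p = 0.996). A dimmer second probe set of Wnt9b read 6.39 to 49.1 in the mutant and 19.9 to 49.5 in wild type, a log2 difference of -0.78 with overlapping groups. Where its probe sets lie against the mutated part was not given in the sources used here, so this does not check the labels. The 10 nephron progenitor genes mark part of the labelled tissue. They summed to 3805 to 7353 signal units on the mutant arrays, against 8217 to 10086 on the wild-type arrays, without overlap. In the mutant 10 of 10 were lower, while by sign alone 9991 of all 18193 genes were higher. None of the 10 passed limma's test over all genes, and 8 were lower at an unadjusted p under 0.05, beside 2.08% of all genes. The list was chosen with earlier results of these data known, so these counts are a description. Uncx passed without the dimmest 40% of genes, and Uncx and Itga8 with trend and robust moderation. In these pools, fewer cells of a type and less RNA per cell cannot be told apart. The part of this marker shift in the values of the 4 genes was not tested. Signal of the 18S ribosomal RNA control, at its 5' end, was high on 2 mutant and 2 wild-type arrays (1975 to 2587) and low on the others (92.4 to 322), so each genotype spans both sets.

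The rule that chose these genes names no test, and their place in the limma fit over all 18193 genes is given here. Ranked by p among genes higher in the mutant, 5830403F22Rik, Lin7a, Cep295nl and Hsd17b2 stood at 1, 2, 4 and 5, with unadjusted p from 0.000101 to 0.000171. Rank 3 was Col9a1, a cartilage collagen chain that is not among the 4, with an unadjusted p of 0.000149. Just beyond them, in order, came Bmp15, an oocyte growth factor (unadjusted p = 0.000322), Tec, a kinase of blood cells, Stk31, and Rspo3, an enhancer of Wnt signalling (unadjusted p = 0.000416). The rule that picked the 4 states no threshold. All 4 genes had the same adjusted p in limma, 0.283. At an adjusted p under 0.05 limma called 0 of 18193 genes higher in the mutant, or 0%, while 620 genes, or 3.41%, were higher and 379 lower at an unadjusted p under 0.05. That split was 493 higher and 511 lower after quantile normalization, and 414 higher and 571 lower after median centring. By sign alone, 9991 of the 18193 genes were higher in the mutant, with a median log2 difference of 0.02. After median centring that median was -0.03, so counts of higher genes depend on the scaling. With an intensity trend and robust moderation limma called 1 gene higher, Col9a1, with an adjusted p of 0.0499.

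The representative probe sets of the 4 genes gave mutant and wild-type signals that did not overlap. So did 119 of 18193 genes with the mutant higher, or 0.654%. Since the same arrays chose the genes, nothing is read from that count.

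**Figure D1:**
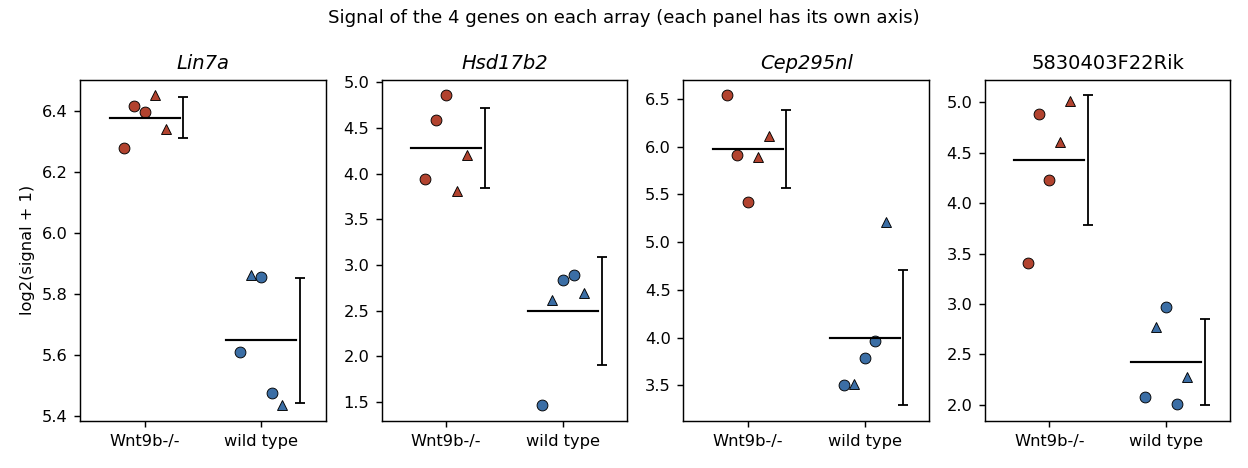
Log2 signal, log2(signal + 1), of the representative probe set of each gene on the 5 Wnt9b-/- arrays (red) and the 5 wild-type arrays (blue). Triangles are arrays with a high 18S signal, horizontal lines are group means, and bars beside them are SDs. In each panel the lowest mutant array lies above the highest wild-type array, with the narrowest gap on this scale in Cep295nl (41.7 against 36.2 signal units).

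Lin7a was measured by probe set 1435805_at at 76.8, 84.4, 83.3, 86.6 and 80.2 signal units in mutant replicates 1 to 5, against 47.9, 57.2, 57.0, 43.5 and 42.3 in wild-type replicates 1 to 5. The mutant arrays were close to each other and all above the wild-type arrays. The mean log2 signal was 6.38 ± 0.07 in the mutant and 5.65 ± 0.20 in wild type (SD, n = 5 each), a difference of 0.73 (SE 0.12) or 1.66-fold. The within-group SD of Lin7a, 0.152, was smaller than that of all but 0.4% of the 500 genes nearest to it in mean signal, whose median SD was 0.427. A choice by small p favours such genes. Lin7a differed by 0.75 on the high-18S arrays alone and by 0.72 on the low-18S arrays alone.

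The other probe sets of Lin7a did not repeat this separation. Probe set 1456656_at read 3.61, 23.4, 56.9, 12.8 and 4.68 in mutant replicates 1 to 5, against 60.5, 34.6, 21.7, 34.0 and 19.1 in wild-type replicates 1 to 5. Its groups overlapped, its mutant arrays spread over nearly the whole range, and its mean log2 difference was -1.22 (SE 0.66), in the opposite direction. Probe set 1438450_at was very dim, at 2.10 to 7.70 in the mutant and 1.23 to 5.63 in wild type, and differed by 0.59 (SE 0.34) with overlapping groups. The mean of the 3 probe sets left a log2 difference of 0.035 for Lin7a. With a pseudocount of 16 the log2 difference was 0.59 on 1435805_at, -0.59 on 1456656_at and 0.12 on 1438450_at. The size on the 2 dimmer probe sets thus depends largely on the pseudocount. Which transcripts each probe set detects was not given in the sources used here, so it cannot be said which of them reads the Lin7a transcript best.

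**Figure D2:**
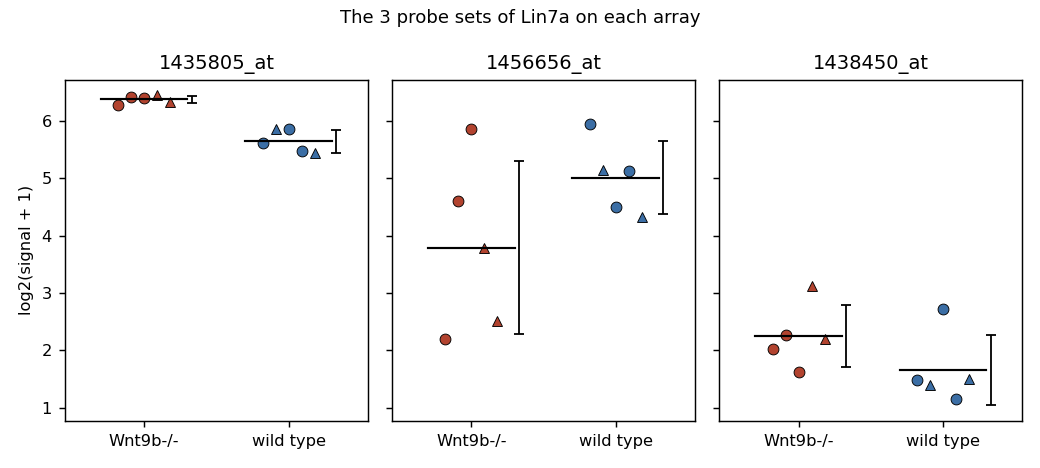
Log2 signal, log2(signal + 1), on the 3 Lin7a probe sets for the 5 Wnt9b-/- arrays (red) and the 5 wild-type arrays (blue), with group means (lines) and SDs (bars); triangles are arrays with a high 18S signal. The groups separate on 1435805_at and overlap on 1456656_at and 1438450_at.

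RefSeq gives Lin7a a pair of transcription starts on chromosome 10 of GRCm38.p6, and the 250 bases before each are printed because Tcf/Lef factors are the nuclear end of the canonical Wnt pathway. Of the 4 genes, 1 was matched in the RefSeq promoter table used. The motifs searched were the Tcf/Lef core letters CTTTGA and CTTTGT on both strands, shown in capitals where found. The first window is chr10:107271581-107271830 and the second chr10:107272144-107272393, both on the plus strand, 5′ to 3′.
Lin7a, first start: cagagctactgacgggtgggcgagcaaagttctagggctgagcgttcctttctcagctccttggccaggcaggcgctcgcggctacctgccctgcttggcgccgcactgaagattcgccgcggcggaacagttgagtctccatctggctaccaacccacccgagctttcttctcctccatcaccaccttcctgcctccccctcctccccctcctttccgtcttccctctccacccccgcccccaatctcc
Lin7a, second start: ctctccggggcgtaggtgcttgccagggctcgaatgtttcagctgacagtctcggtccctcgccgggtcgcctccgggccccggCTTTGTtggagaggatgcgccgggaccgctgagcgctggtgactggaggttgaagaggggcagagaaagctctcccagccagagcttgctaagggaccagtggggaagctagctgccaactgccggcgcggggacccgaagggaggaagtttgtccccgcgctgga
The second window holds 1 CTTTGT, whose first base lies at position -166 from the start, and the first window holds neither motif. Of 32851 RefSeq promoter windows of the same length, 27.6% hold at least 1 of the motifs. Such a match is a description of the letters and says nothing about binding.

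The paralogues of Lin7a were not called. Lin7c, the family member with the brightest probe sets here, had signals of 910 to 1359 in the mutant and 1007 to 1559 in wild type (log2 difference -0.20, SE 0.15, limma adjusted p = 0.982). Its 4 probe sets differed by -0.25 to -0.07. Lin7b had signals of 7.84 to 66.3 in the mutant and 7.75 to 50.1 in wild type (log2 difference 0.68, SE 0.67, limma adjusted p = 0.996), and its 4 probe sets differed by 0.16 to 0.68 with overlapping groups. Among 20 measured partners and relatives of LIN7, 11 were higher and 9 lower in the mutant, with a median log2 difference of 0.08, beside 0.02 over all genes. None passed limma's test over all genes, and none had an unadjusted p under 0.05. The smallest p values belonged to Kcnj4, a potassium channel (log2 difference 1.16, SE 0.58), Mpp3, a membrane scaffold (0.32, SE 0.16), and Dlg1, another scaffold (-0.21, SE 0.12).

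Hsd17b2 was read by 1 probe set, 1418352_at, at 14.3, 23.0, 28.0, 13.0 and 17.5 signal units in mutant replicates 1 to 5, against 1.76, 5.14, 6.13, 6.39 and 5.45 in wild-type replicates 1 to 5. Wild-type replicate 1 was the lowest of all, and the other wild-type arrays lay close together. The mean log2 signal was 4.28 ± 0.44 in the mutant and 2.50 ± 0.59 in wild type (SD, n = 5 each), a difference of 1.78 (SE 0.31) or 3.44-fold. In signal units the means differed by 14.2, which is small beside the array medians given above. With a pseudocount of 16 the log2 difference was 0.73, or 1.66-fold, so the size of this change is set largely by the pseudocount. Without wild-type replicate 1 the log2 difference was 1.52. On the high-18S arrays alone it was 1.36 and on the low-18S arrays alone 2.07.

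Steroid enzymes and receptors were not called along with Hsd17b2. Of 18 measured genes of that list 8 were higher and 10 lower in the mutant, with a median log2 difference of -0.03, and none passed limma's test over all genes. Of the 18, 2 were higher at an unadjusted p under 0.05, Nr3c2 and Nr3c1, beside 3.41% of all genes. Nr3c2, the mineralocorticoid receptor, had signals of 5.87 to 24.4 in the mutant, against 1.84 to 6.55 in wild type (log2 difference 1.45, SE 0.45, limma adjusted p = 0.691). Nr3c1, the glucocorticoid receptor, had signals of 226 to 399 in the mutant, against 183 to 263 in wild type (log2 difference 0.46, SE 0.17, limma adjusted p = 0.829). The groups overlapped for both receptors. Hsd17b12, a relative that acts in fatty acid elongation, was next by p (log2 difference -0.23, SE 0.12). Markers of adrenal and gonad, the steroid-making tissues next to the kidney, were higher in 5 of 7 genes, with summed signals of 299 to 418 in the mutant, against 280 to 422 in wild type. Cyp11a1, the first enzyme of steroid synthesis, read 6.78 to 39.9 in the mutant and 5.03 to 47.3 in wild type. Cyp17a1 had the smallest p of these markers, at 3.51 to 26.5 in the mutant and 3.62 to 6.90 in wild type. It differed by 0.82 (SE 0.46) and Nr0b1 by -0.96 (SE 0.62), with overlapping groups. None of the 7 markers had an unadjusted p under 0.05. Their part in the Hsd17b2 value was not tested.

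Cep295nl was read by 1 probe set, 1450469_at, at 92.0, 59.1, 41.7, 58.2 and 68.4 signal units in mutant replicates 1 to 5, against 10.3, 10.5, 12.8, 14.6 and 36.2 in wild-type replicates 1 to 5. Wild-type replicate 5 stood apart from the other wild-type arrays and came near the lowest mutant array. The mean log2 signal was 5.97 ± 0.41 in the mutant and 4.0 ± 0.71 in wild type (SD, n = 5 each), a difference of 1.98 (SE 0.34) or 3.93-fold. Without wild-type replicate 5 the log2 difference was 2.28 and limma's adjusted p was 0.0345. Leaving out any other array left the adjusted p of Cep295nl above 0.05. Wild-type replicate 5 was the wild-type array nearest to the mutant arrays. Because the same arrays chose Cep295nl for a small p, nothing is read from that adjusted p. With a pseudocount of 16 the log2 difference was 1.30, or 2.47-fold. On the high-18S arrays alone it was 1.63 and on the low-18S arrays alone 2.20.

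In RefSeq, Cep295nl lies within the span of Timp2 on chromosome 11, a gene for an inhibitor of matrix metalloproteinases. The host gene was not called. The representative Timp2 probe set had signals of 668 to 850 in the mutant, against 517 to 940 in wild type (log2 difference 0.09, SE 0.16, limma adjusted p = 0.999). The 6 Timp2 probe sets differed by -0.14 to 0.79, with overlapping groups on all 6. The dimmest of them, at 10.9 to 45.3 in the mutant and 2.67 to 36.2 in wild type, gave the difference of 0.79. The neighbouring genes Usp36, a deubiquitinase gene (log2 difference 0.06, SE 0.19), and Lgals3bp (0.14, SE 0.27) were not called. Timp and Mmp genes together with Reck, another inhibitor of matrix metalloproteinases, were higher in 9 of 10 measured members. By sign alone, 9991 of 18193 genes were higher. The median log2 difference of these members was 0.28, beside 0.02 over all genes. None passed limma's test over all genes or had an unadjusted p under 0.05. Their smallest p values were those of Mmp11 (log2 difference 0.32, SE 0.14), Mmp2 (0.23, SE 0.11) and Mmp14 (0.28, SE 0.14), all matrix metalloproteinases. Centriole genes were split, with 10 of 22 higher and 12 lower in the mutant and a median of -0.03, and none had an unadjusted p under 0.05. Plk4, the kinase that starts centriole duplication, differed by -0.20 (SE 0.13), Cep97 by -0.14 (SE 0.10) and Cep152 by -0.28 (SE 0.21).

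The long non-coding RNA 5830403F22Rik was read by 1 probe set, 1453073_at, at 9.58, 28.5, 17.7, 23.3 and 31.2 signal units in mutant replicates 1 to 5, against 3.23, 5.84, 6.84, 3.02 and 3.86 in wild-type replicates 1 to 5. Mutant replicate 1 was the lowest mutant array and still above every wild-type array. The mean log2 signal was 4.42 ± 0.64 in the mutant and 2.42 ± 0.43 in wild type (SD, n = 5 each), a difference of 2.0 (SE 0.32) or 4.0-fold. In signal units the means differed by 17.5. With a pseudocount of 16 the log2 difference was 0.86, or 1.81-fold. On the high-18S arrays alone it was 2.28, on the low-18S arrays alone 1.82, and without mutant replicate 1 it was 2.26.

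This RNA lies within the span of Adam12 on chromosome 7 in RefSeq, a gene for a membrane metalloproteinase of mesenchymal cells. Adam12 had signals of 404 to 506 in the mutant, against 302 to 460 in wild type (log2 difference 0.15, SE 0.14, limma adjusted p = 0.988). Its second probe set differed by 0.06. Of the genes on either side, Fank1 had 4 probe sets that differed by -0.42 to 0.94 with overlapping groups. D7Ertd443e differed by -0.03 (SE 0.29). Around Hsd17b2, Mphosph6, a factor in ribosomal RNA processing, differed by 0.01 (SE 0.13) and the dim Sdr42e1 by -0.23 (SE 0.30). Next to Lin7a, the muscle regulator Myf5 was at 1.03 to 10.4 in the mutant and 0.248 to 26.6 in wild type. No tested host or neighbouring gene of the 4 was called by limma over all genes.

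**Figure D3:**
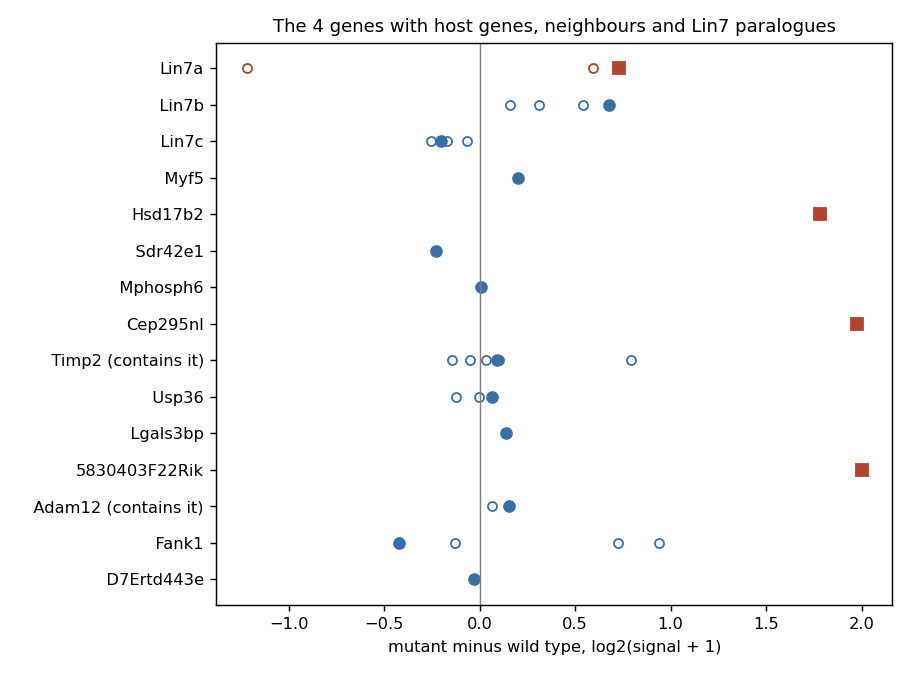
Difference of mean log2(signal + 1), mutant minus wild type, for every probe set of the 4 genes (red) and of their Lin7 paralogues, host genes and neighbours in RefSeq (blue). Filled symbols are the brightest probe set of a gene and open circles the others. The filled red squares lie at 0.73 to 2.0, and the filled blue circles at -0.42 to 0.68.

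All 4 representative probe sets were dim. The mean log2 signal exceeded that of 37.3% of genes for Lin7a, 24.4% for Cep295nl, 9.48% for 5830403F22Rik and 9.11% for Hsd17b2. Thus none of the 4 remained among genes when the dimmest 40% were left out, a limit at a mean log2 signal of 6.24. Probe sets differ in how well they bind, so these ranks describe brightness and not the amount of transcript. Of the 30 genes higher in the mutant with the smallest p, 12 were in the dimmest 40%. The files used here give no detection call, so whether the wild-type signals of 1.76 to 6.84 for Hsd17b2 and 5830403F22Rik differ from background cannot be said. The within-group SD was 0.52 for Hsd17b2 and 0.55 for 5830403F22Rik, against medians of 1.07 and 1.09 among the 500 genes nearest to each in mean signal. For Cep295nl it was 0.58, against a median of 0.76.

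**Figure D4:**
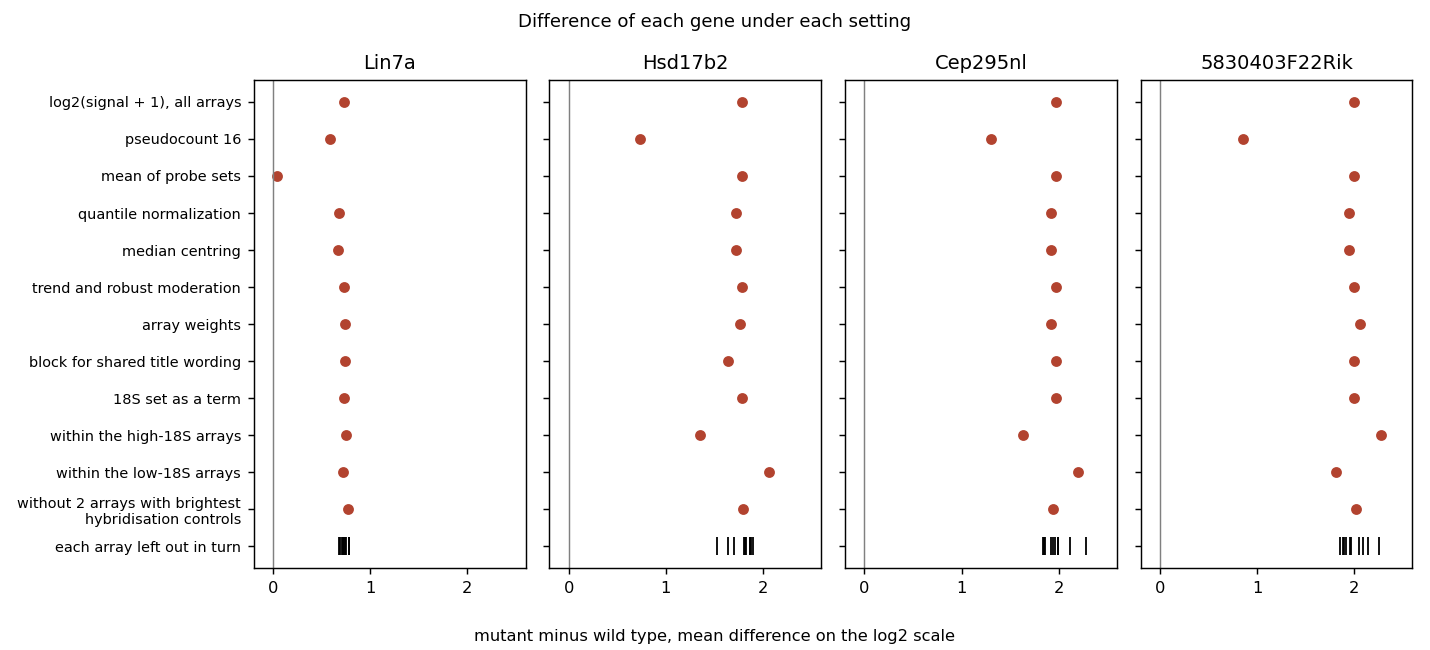
Difference of mean log2 values, mutant minus wild type, for each gene under each setting that kept it (red points) and with each array left out in turn (black ticks). All settings but the mean of probe sets use the representative probe set. The settings that move a gene most are the pseudocount of 16 for Hsd17b2, Cep295nl and 5830403F22Rik (0.73, 1.30 and 0.86) and the mean of probe sets for Lin7a (0.035).

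No correlation among the 4 genes within the groups passed its test. After each group's mean was subtracted, the 6 pairs of genes were correlated over the 10 arrays. The strongest was that of Lin7a with Cep295nl, with a Pearson's r of -0.66 (permutation p = 0.0371, 0.175 adjusted over 6 pairs) and a Spearman's rho of -0.60 (permutation p = 0.0738, adjusted 0.221). Without the 2 arrays farthest from the Lin7a median r was -0.68. Lin7a and 5830403F22Rik gave an r of 0.62 (permutation p = 0.0583, adjusted 0.175) and a rho of 0.61 (permutation p = 0.0668, adjusted 0.221), and r was 0.47 without the 2 farthest arrays. The r values of the other 4 pairs lay between -0.28 and 0.28, with adjusted permutation p from 0.659 to 0.905.

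Among 18192 other genes, those most like each of the 4 were taken as the highest Pearson's r over the 10 arrays after the group means were subtracted. Being the highest of so many, these r values carry no test. For Lin7a they were Gm15867 (r = 0.94), Myd88 (0.90) and Tmem17 (0.89). For Hsd17b2 they were Gm2381 (0.98), Dpp4 (0.95) and Aurka (0.95). For Cep295nl they were Stfa3 (0.91), Ccdc174 (0.90) and Rgs6 (0.87). For 5830403F22Rik they were Ndrg3 (0.96), Hnrnpl (0.96) and Aldh1a2 (0.95). None of these 12 genes was called between the genotypes, and their differences ran from -0.67 for Rgs6 to 0.80 for Gm15867. In a check added after the data were seen, the wild-type array that stood apart for Hsd17b2 or Cep295nl was left out, with 9 arrays kept. Without wild-type replicate 1 the r values to Hsd17b2 were 0.96 for Gm2381, 0.89 for Dpp4 and 0.94 for Aurka. Without wild-type replicate 5 those to Cep295nl were 0.76 for Stfa3, 0.65 for Ccdc174 and 0.59 for Rgs6.

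No marker of another cell type was called by limma over all genes. At an unadjusted p under 0.05 were 6 of 56 measured, beside 5.49% of all genes. Of these Stmn2, Foxd3, Pdgfra, C1qa and Kit were higher in the mutant and the stromal list's Ntn1 lower. The counts of higher markers below stand beside 9991 of 18193 genes that were higher by sign alone. Neuron and neural crest markers, of interest because Lin7a is known from neurons, were higher in 3 of 5 measured genes, with summed signals of 590 to 920 in the mutant, against 463 to 670 in wild type. Stmn2, a neuronal microtubule gene, had signals of 306 to 566 in the mutant, against 179 to 263 in wild type (log2 difference 0.67, SE 0.19, limma adjusted p = 0.668). Foxd3 differed by 0.99 (SE 0.32), Tubb3 by 0.25 (SE 0.23), Elavl4 by -0.16 (SE 0.22) and Sox10 by -0.01 (SE 0.47). Ureteric bud markers were higher in 5 of 10, at 1465 to 4368 in the mutant and 2057 to 3449 in wild type. Macrophage markers were higher in 7 of 7, at 1143 to 2373 in the mutant and 1207 to 1807 in wild type. Endothelial markers were higher in 6 of 6, at 2065 to 2785 in the mutant and 2107 to 2753 in wild type. Renal stroma markers were higher in 4 of 6, at 8271 to 11416 in the mutant and 7928 to 9776 in wild type. Erythroid markers were higher in 3 of 5 and skeletal muscle markers in 4 of 5, with overlapping sums. Germ cell markers were higher in 1 of 5. That gene, Kit, a growth factor receptor that other cell types also express, set their sum of 881 to 1218 in the mutant, against 513 to 812 in wild type, without overlap. The germ cell genes Ddx4 and Dazl read at most 35.2 in the mutant and 28.4 in wild type. Dppa3 read 21.2 to 72.0 in the mutant and 42.7 to 57.3 in wild type. Pou5f1 read 2.94 to 34.7 in the mutant and 3.37 to 39.8 in wild type. The part of any of these lists in the values of the 4 genes was not tested.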

How the data were processed

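Total RNA from 10 pools of E11.5 metanephric mesenchyme, 5 Wnt9b-/- and 5 wild type, was labelled as biotin cRNA from 1 ug and hybridised to single-colour arrays, per the labels' protocols. The authors deposited 1 table of linear probe-set intensities. Their summary algorithm was not given in the sources used here. After trimming 2% at each end, every array had a mean of 250.0, so the arrays had been scaled before deposit. No further normalization was applied. The number of arrays limits the precision, and no detection calls were used.

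Of 45101 probe sets, 34945 had 1 gene symbol in the platform annotation; 34741 of these matched a RefSeq gene of GRCm38.p6 by identifier. Where a gene had several probe sets, that with the highest mean stood for it. The test on log2(signal + 1) values was limma 3.58.1 under R 4.3.3 (lmFit, eBayes, two-sided, Benjamini-Hochberg over 18193 genes, threshold 0.05). SEs of secondary probe sets came from the same fit over all 34945 probe sets. A run on simulated independent normal values required only that the sizes of known differences were recovered. It set no requirement on the calls. Correlations used 100000 resamples, two-sided. The size of a fold change in a dim gene depends on the pseudocount, and for the 4 genes it was smaller with 16 than with 1. Whether the printed fold changes lie above or below the change in transcript was not tested.

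The 4 genes and all lists were chosen with earlier results of these data known. Named genes were the 4, Lin7b and Lin7c, RefSeq hosts and neighbours, the 3 most alike genes of each, the 3 smallest p values of each related list, and the 5 next genes by p among those higher in the mutant. Other genes were chosen after their values were seen. The neighbour Acss3 is not analysed here. Replicate numbers only name the arrays. The label protocol states a distinct RNA pool for each array. List genes without a probe set of 1 symbol are not analysed here.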

Additional observations from a re-analysis of the deposited data

Results flagged for a closer look

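For each genotype, the gap between its most extreme array and the next was set against the range of its 5 arrays. This was done for the probe sets of the 4 genes, the other genes named by rule and the list scores (the mean log2 signal of a list), 120 groups of values in all. In 12 groups an array stood out. Chance gives about 1 in 20 where groups are independent, which these are not, since 4 of the 12 are genes picked for likeness to Hsd17b2 or Cep295nl on the same arrays. Their causes were not tested.

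Among the 4 genes, Hsd17b2 had a log2 signal of 1.46 in wild-type replicate 1, while the other wild-type arrays read 2.62 to 2.89. Cep295nl read 5.22 in wild-type replicate 5, and 3.50 to 3.97 in the others. The dimmest Lin7a probe set, 1438450_at, read 2.73 in wild-type replicate 3, and 1.16 to 1.501 in the others.

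Of the other genes, wild-type replicate 1 was also low for Gm2381, at 2.19, and Dpp4, at 3.34. Wild-type replicate 5 was also high for Ccdc174, at 8.71, and Rgs6, at 4.16. Wild-type replicate 5 further had the highest score of the centriole list in its group, 8.23 against 8.02 to 8.07. Sdr42e1 was at 1.38 in mutant replicate 2, while the other mutant arrays read 2.595 to 3.02. Dlg1 read 9.71 in wild-type replicate 2 and 9.98 to 10.06 in the others of its group. Kcnj4 read 2.18 in wild-type replicate 3 and 4.79 to 5.72 in the others. The erythroid list score was 9.45 in wild-type replicate 3, against 8.40 to 8.64.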

How the results depend on the processing

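The 4 genes stayed higher in the mutant on their representative probe sets in every setting that kept them. Their groups do not overlap there, so leaving out arrays or changing the pseudocount could not reverse the direction. These arrays also chose the genes, so nothing is read from the constant direction. With a pseudocount of 16 the log2 differences were 0.59 for Lin7a, 0.73 for Hsd17b2, 1.30 for Cep295nl and 0.86 for 5830403F22Rik. Lin7a came to 0.035 with the mean of its probe sets and -1.22 on probe set 1456656_at alone. Leaving out each array in turn gave 0.68 to 0.78 for Lin7a, 1.52 to 1.90 for Hsd17b2, 1.83 to 2.28 for Cep295nl and 1.85 to 2.26 for 5830403F22Rik. A replicate block for the 3 pairs of arrays whose titles share wording gave 0.74, 1.64, 1.97 and 2.0 in that order of genes, with limma adjusted p of 0.0910 to 0.113. After genotype was fitted, the residuals of arrays in such a pair had a consensus correlation of 0.370, estimated by limma across genes. The block raised the genes with an unadjusted p under 0.05 to 1562, against 999 without it, and the titles do not say that these arrays were paired. The genes with an adjusted p under 0.05 numbered 1, Btbd11, lower in the mutant, and 0 with the mean of probe sets, the 18S term, within either 18S set and on leaving out the 2 arrays of brightest hybridisation controls. They numbered 6 without the dimmest 40% of genes, where none of the 4 genes was tested, and 10 with trend and robust moderation. Leaving out each array gave 0 to 2, and the 2 came without wild-type replicate 5, with Cep295nl among them. Cep295nl was chosen on these same arrays, so nothing is read from that call. No member of the 4 related lists was called in any setting. Without the 2 farthest arrays the correlation of Hsd17b2 with Cep295nl was -0.48, against 0.04, and that of Cep295nl with 5830403F22Rik 0.42, against -0.28. The causes were not tested.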
